A study of Mus musculus with 27 samples.

Results

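The matrix-binding integrins described here are 10 subunit genes chosen by symbol, Itga1, Itga2, Itga4, Itga5, Itga6, Itgav, Itgb1, Itgb3, Itgb5 and Itgb8. All 10 were among the 40129 genes of the table and all 10 passed the filter on low values, which left 27137 genes to test. Other integrin subunits, matrix ligands and adhesion adaptors are given as lists beside them.

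The data are bulk RNA sequencing of whole retina from the oxygen-induced retinopathy (OIR) model, in which newborn mice spend several days in high oxygen, lose retinal capillaries, and grow pathological vessel tufts after their return to room air. The mice were wild type and labelled C57BL/6 (C57BL/6J in the study's methods), and control mice (nOIR) of the same strain stayed in room air throughout. Retinas were taken at postnatal day (p) 14, a phase of retinal hypoxia, or at p17, a phase of retinal neovascularization, after intracardiac perfusion with PBS. The comparisons used 26 mice, with 6 nOIR and 6 OIR mice at p14, 6 nOIR and 8 OIR mice at p17, and 1 library per mouse made from 1 or 2 retinas. The mouse labelled S4 of nOIR p14 was set aside, as the study did, so 6 of the 7 mice of that group remained. Each group held fewer litters than mice by the study's methods, so it held littermates, and which mice shared a litter is not known here. The tests took mice as independent, so p-values measure the spread between mice and not between litters. In whole tissue, more cells of a type and more RNA per cell cannot be told apart.

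Integrins are cell surface receptors made of 1 alpha and 1 beta subunit that tie the extracellular matrix to the actin cytoskeleton. The beta subunit encoded by Itgb1 pairs with many alpha subunits, among them the collagen receptors (Itga1, Itga2), the main fibronectin receptor (Itga5), a receptor for fibronectin and VCAM1 (Itga4) and a laminin receptor (Itga6). The alpha v subunit (Itgav) pairs with the products of Itgb3, Itgb5 and Itgb8 as well, and these receptors read the Arg-Gly-Asp (RGD) motif of vitronectin, fibronectin and latent TGF-beta. Endothelial cells use many of these receptors to anchor to the vascular basement membrane during sprouting.

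Promoter windows are shown for Itga1, Itga5 and Itgb1, because these 3 genes rose further at p17 than at p14, and for Itgb8, whose OIR effect was called at both ages with the higher estimate at p14. Each window runs from 250 bases before to 50 bases after the annotated start in RefSeq on GRCm38.p6, 5′ to 3′ on the strand of the gene. They lie at chr13:115101915-115102214 (minus strand) for Itga1, chr15:103366742-103367041 (minus strand) for Itga5, chr8:128685404-128685703 (plus strand) for Itgb1 and chr12:119238227-119238526 (minus strand) for Itgb8. Capitals mark matches to any motif searched.
Itga1: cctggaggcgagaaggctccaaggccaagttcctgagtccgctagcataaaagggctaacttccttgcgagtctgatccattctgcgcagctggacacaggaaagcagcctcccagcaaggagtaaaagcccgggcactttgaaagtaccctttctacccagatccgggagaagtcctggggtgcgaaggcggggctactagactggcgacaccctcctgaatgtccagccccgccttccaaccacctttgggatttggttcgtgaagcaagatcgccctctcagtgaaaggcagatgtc
Itga5: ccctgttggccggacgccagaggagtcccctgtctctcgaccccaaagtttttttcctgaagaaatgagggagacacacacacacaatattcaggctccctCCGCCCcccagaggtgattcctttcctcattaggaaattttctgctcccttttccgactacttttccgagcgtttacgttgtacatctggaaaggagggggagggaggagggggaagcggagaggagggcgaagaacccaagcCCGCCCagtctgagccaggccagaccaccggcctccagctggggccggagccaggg
Itgb1: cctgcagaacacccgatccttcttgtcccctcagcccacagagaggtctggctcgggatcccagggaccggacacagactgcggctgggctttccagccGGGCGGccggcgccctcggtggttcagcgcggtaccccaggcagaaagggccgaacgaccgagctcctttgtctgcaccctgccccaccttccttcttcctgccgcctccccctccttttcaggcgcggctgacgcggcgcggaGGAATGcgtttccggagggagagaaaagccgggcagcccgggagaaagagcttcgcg
Itgb8: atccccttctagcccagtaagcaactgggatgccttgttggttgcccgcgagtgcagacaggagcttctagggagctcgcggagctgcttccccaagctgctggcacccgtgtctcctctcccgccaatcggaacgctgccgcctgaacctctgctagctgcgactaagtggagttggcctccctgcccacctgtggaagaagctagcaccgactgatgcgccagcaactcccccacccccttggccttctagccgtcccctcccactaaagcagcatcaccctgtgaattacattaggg

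The motifs were the hypoxia response core as ACGTG and as GCGTG, the GC box GGGCGG, the AP-1 site TGANTCA, the ETS site CCGGAAG and the TEAD site CATTCC, searched on both strands. A window was held for 8 of the 10 members, and Itga6 and Itgb3 are named only. The GC box was in 6 of the 8 windows, at 2 places in Itga5, 1 in Itgb1 and 3 in Itgb5, and in 35.7% of all 32851 windows of the same length. GCGTG was in the windows of Itga2, Itga4 and Itgb5 (32.4% of all windows) and ACGTG in none of the 8 (19.6%). CATTCC was found in Itgb1 alone, on the other strand and 7 to 2 bases before the start (14.7%). The AP-1 letters (7.81% of all windows) and the ETS letters (8.86%) were in none of the 8. These are matches of letters and say nothing of whether a factor bound there.

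Levels are normalized reads, the authors' read counts divided by a size factor per mouse, and they are not divided by gene length, so levels of different genes are not compared. Recovered totals ran from 17029536 to 33593428 reads per mouse. Across mice, members had median recovered reads from 36.5 (Itga2) and 51.0 (Itgb3) to 3232 (Itgb1). The libraries of OIR p17 mice S6, S7 and S8 stood apart from those of S1, S2 and S5. The chi-square per degree of freedom between the recovered reads of 2 mice, which sampling noise alone would put near 1, was 22.1 to 48.9 among the former, 20.3 to 23.9 among the latter and 59.5 to 139.2 between them. S3 and S4 were at 41.7 to 83.5 from S6, S7 and S8. S3 was also at 64.9 to 80.6 from S1, S2 and S5, and S4 at 42.2 to 52.2. In OIR p14, S1 was at 55.4 to 92.0 from the other mice of its group. S6, S7 and S8 were thus not the only libraries that stood apart. The counts of members called and results for Itga5, Itga6 and Itgav are also given without S6, S7 and S8, and those for Itgb5 are not. A difference was called at an adjusted p under 0.05 (limma, Benjamini-Hochberg over all genes tested), and log2 fold changes (log2FC) are on the log2(normalized reads + 1) scale.

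At p14, 5 of the 10 members were higher in OIR than in nOIR retina and 0 were lower, while 3.18% of all genes tested were called higher and 2.91% lower. At p17, 7 were higher and 0 lower, against 7.39% and 5.12% of all genes. With every mouse scaled to the same total, the share of calls that were higher changed from 52.2% to 62.6% at p14 and from 59.1% to 71.4% at p17 over all genes, and the members' counts stayed at 5 and 7. The count at p14 was 2 or 3 when any of 8 single mice was left out (nOIR p14 S2, S3, S5, S6 or S7, or OIR p14 S4, S5 or S6), and 3 with only the compared groups fitted. Without S6, S7 and S8 of OIR p17, 6 members were called higher at p14 and 8 at p17, Itgav being the addition at both ages. These mice drew attention by their Itgb5 levels, and S7 and S8 were the lowest OIR p17 mice for Itgav. Leaving them out thus raises the p17 count by itself, and the p14 count changes through the spread shared by all groups. Itga4, Itga5, Itgb1, Itgb3 and Itgb8 were called at both ages, and Itga1 and Itga6 at p17. The median log2FC of the members was 0.61 at p14 and 0.96 at p17, beside 0.017 and -0.023 for all genes. The group mean was higher in OIR for 9 of 10 members at each age, Itgb5 being the exception. The comparisons at the 2 ages shared no mice.

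**Figure D1:**
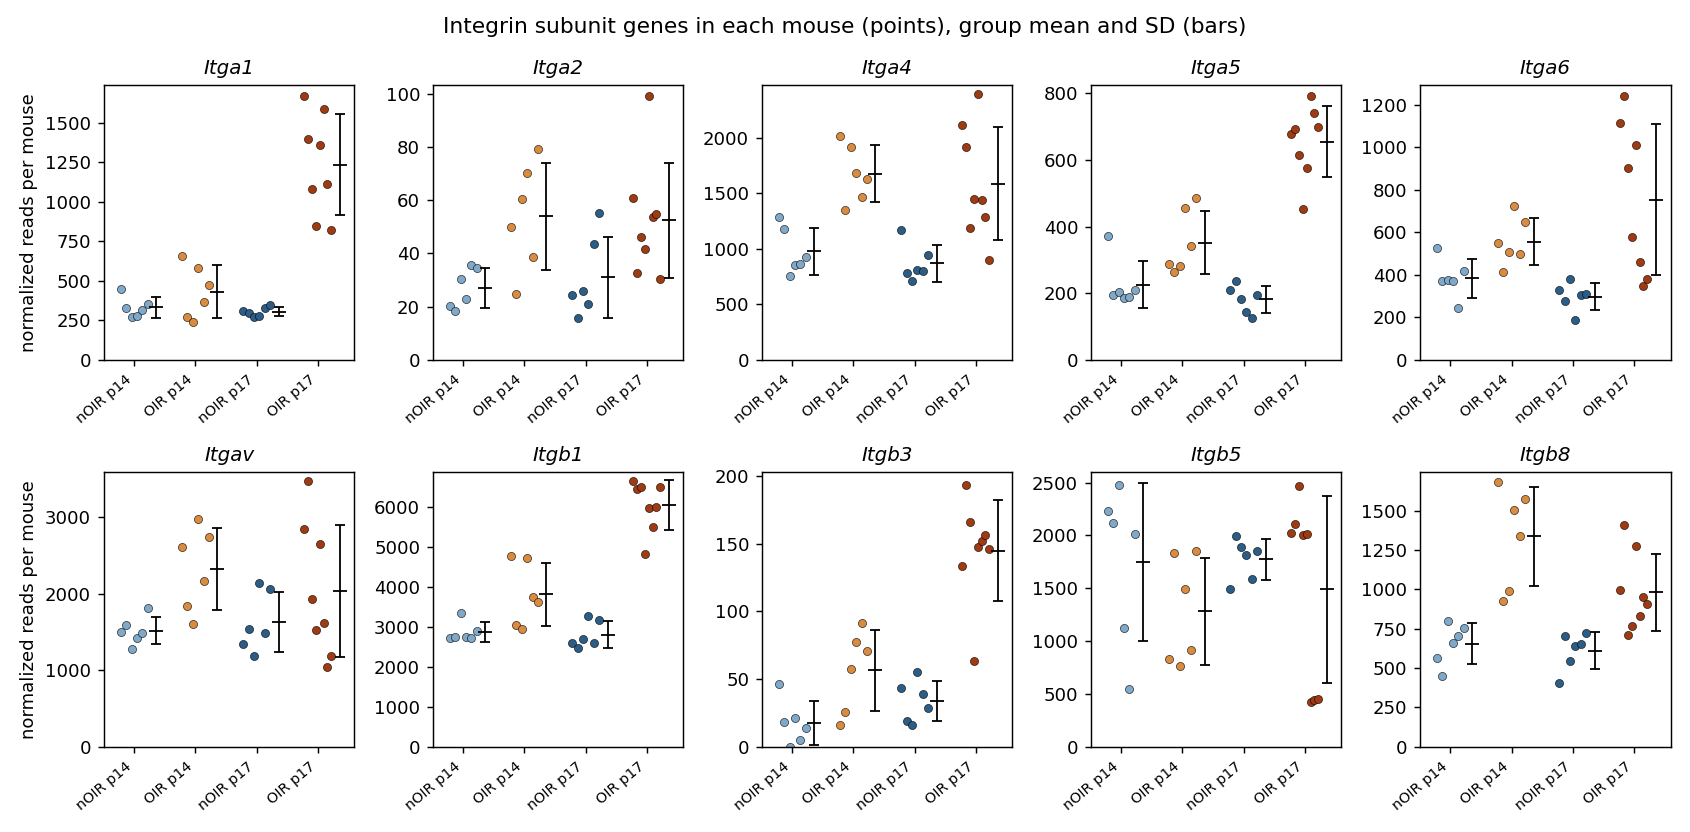
Normalized reads of the 10 integrin subunit genes in each of 26 mice (points), by group on the horizontal axis, with the group mean and SD beside the points. Itga1, Itga5, Itgb1 and Itgb3 of OIR p17 sit above all nOIR p17 mice, and Itgb5 of OIR p17 splits into 5 high and 3 low mice.

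At p14 the 2 groups were separate, with OIR on top, for 2 members, Itga4 and Itgb8, as for 1.91% of all genes. At p17 they were separate in that direction for 4 members, Itga1, Itga5, Itgb1 and Itgb3, as for 3.9% of all genes. With a log2FC above 2 also required, 1 member passed at each age, Itgb3, where 0.744% of all genes passed at p14 and 1.9% at p17. Itga1 was just under that limit at p17, at 1.97, and Itga5 followed at 1.85. With single mice left out, Itga1 at p17 was 1.91 to 2.05, so whether it passed 2 depended on the mice used. Without nOIR p14 mouse S3, which had 0 reads of Itgb3, the log2FC of Itgb3 at p14 was 1.46 (adjusted p = 0.0544 by limma) and did not pass. At p17 it was 1.96 to 2.30 when single mice were left out.

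The collagen receptor subunit Itga1 rose 3.93-fold at p17 and showed no called difference at p14. Its lowest, median and highest values were 270.8, 302.0 and 345.3 normalized reads in nOIR p17 and 823.0, 1237 and 1666 in OIR p17. The lowest OIR p17 mouse was thus above the highest of all other groups, 659.0 in OIR p14. Its log2FC at p17 was 1.97 (SE 0.193, adjusted p = 7.37e-09 by limma), higher in 8 of 8 mice (two-sided exact permutation p = 3.33e-04, the smallest 8 against 6 mice allow).

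At p14 Itga1 ran from 239.0 over a median of 420.0 to 659.0 in OIR mice and from 269.1 over 320.9 to 451.1 in nOIR mice. The OIR p14 mice covered a wider range than the controls on both sides, with 3 of 6 above all controls and 1 below. The log2FC was 0.30 (SE 0.206, adjusted p = 0.523 by limma), and 0.16 to 0.45 when single mice were left out, never called.

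Itga2, the alpha subunit of the other collagen receptor, was low and was not called at either age by limma. Its median was 26.6 normalized reads in nOIR p14 and 55.3 in OIR p14, and 25.1 in nOIR p17 and 49.9 in OIR p17. The mean of OIR p14 was 53.9 ± 20.2 (SD, n = 6) and that of nOIR p14 27.0 ± 7.5. Of the 6 OIR p14 mice 5 were above all controls, yet the groups overlapped, and the log2FC of 0.92 (95% interval 0.26 to 1.58) had an adjusted p of 0.10 by limma (exact permutation p = 0.015, not adjusted). At p17 the log2FC was 0.78 (0.16 to 1.40) with an adjusted p of 0.0983 by limma (exact permutation p = 0.030, not adjusted), and 2 of 8 OIR mice were above all controls. Itga2 was called at p14 by DESeq2 on recovered reads (1.01, adjusted p = 0.0291) and without OIR p14 mouse S2 (1.12, adjusted p = 0.0327 by limma). At p17 it was called with each mouse's slope of level on transcript length as a covariate (0.88, adjusted p = 0.0439 by limma) and without nOIR p17 mouse S6 (0.96, adjusted p = 0.0391).

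Itga5, which with Itgb1 forms the main fibronectin receptor, rose 3.61-fold at p17. Its lowest, median and highest values were 127.1, 188.0 and 236.9 normalized reads in nOIR p17 and 453.6, 684.6 and 791.1 in OIR p17, so the groups were well apart. The log2FC was 1.85 (SE 0.173, adjusted p = 3.22e-09 by limma), with the smallest exact permutation p that the design allows, 3.33e-04. Without S6, S7 and S8 of OIR p17 it was 1.73 (adjusted p = 2.76e-07 by limma).

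At p14 the Itga5 difference was smaller, 1.56-fold with a log2FC of 0.64 (SE 0.185, adjusted p = 0.0328 by limma). The OIR p14 mice ran from 263.0 to 484.3 normalized reads with a median of 315.2. Of the 6 nOIR p14 mice 5 lay between 187 and 210, and S1 stood at 371.1, above 4 of the OIR mice. The p14 call did not hold when any of 8 single mice was left out (nOIR p14 S2, S3, S5, S6 or S7, or OIR p14 S4, S5 or S6), with log2FC from 0.54 to 0.64 and adjusted p from 0.0573 to 0.0962 by limma. Without S1 of nOIR p14 it was 0.79 with an adjusted p of 0.0038.

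Itga4, a receptor subunit for fibronectin and VCAM1 that is best known from leukocytes, was higher in OIR at both ages. In p14 mice it ran from 753.7 over 894.5 to 1289 normalized reads in nOIR and from 1347 over 1657 to 2017 in OIR, without overlap. In p17 mice it ran from 707.7 over 803.7 to 1173 in nOIR and from 897.2 over 1446 to 2391 in OIR, where S8 was the lowest and the other 7 were above all controls. The log2FC was 0.79 at p14 (SE 0.182, adjusted p = 0.0060 by limma) and 0.82 at p17 (SE 0.170, adjusted p = 8.79e-04). The exact permutation p was 0.0022 at p14, the smallest that 6 against 6 mice allow, and 0.0037 at p17.

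Itga6, the alpha subunit of laminin receptors, rose 2.32-fold at p17, with a wide spread among OIR mice. The nOIR p17 mice lay between 186.4 and 378.3 normalized reads (median 307.6) and the OIR p17 mice between 347.5 and 1239 (median 739.6). Of the OIR mice S6, S7 and S8 were the lowest, at 461, 348 and 379, and only S7 fell within the range of the controls. Leaving these mice out raises the p17 value by itself. The log2FC was 1.21 (SE 0.244, adjusted p = 6.29e-04 by limma; exact permutation p = 0.0043), and 1.68 without S6, S7 and S8 (adjusted p = 4.49e-07 by limma). At p14 the means were 556.6 ± 112.1 (SD, n = 6) in OIR and 383.5 ± 90.4 in nOIR, with a log2FC of 0.55 (0.014 to 1.08) that missed the threshold (adjusted p = 0.279 by limma).

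Itgb1, the common beta partner of these alpha subunits, rose 2.16-fold at p17 with the narrowest relative spread of the members among OIR p17 mice. Its lowest, median and highest values were 2480, 2653 and 3266 normalized reads in nOIR p17 and 4814, 6227 and 6644 in OIR p17, a coefficient of variation of 11.9% and 10.4%. The lowest OIR p17 mouse, S4, was also above the highest OIR p14 mouse, 4768. The log2FC was 1.11 (SE 0.103, adjusted p = 3.01e-09 by limma; exact permutation p = 3.33e-04).

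At p14 Itgb1 was 1.31-fold higher, with 2718, 2746 and 3359 in nOIR and 2947, 3685 and 4768 in OIR as lowest, median and highest. Of the OIR mice 4 were above all controls, and S2 and S3 were within their range. The log2FC of 0.39 (SE 0.110, adjusted p = 0.0298 by limma) lost its call when any of 8 mice was left out (nOIR p14 S1, S2, S5, S6 or S7, or OIR p14 S1, S4 or S5), with log2FC from 0.32 to 0.39 and adjusted p from 0.0506 to 0.0929, and with S4 of nOIR p14 included (0.34, adjusted p = 0.0672).

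Itgav, the alpha v subunit, was not called at either age by limma. It ran from 1282 over 1493 to 1816 normalized reads in nOIR p14 and from 1599 over 2388 to 2969 in OIR p14, where 5 of 6 mice were above all controls. The log2FC was 0.59 (0.13 to 1.04, adjusted p = 0.138 by limma; exact permutation p = 0.0043, not adjusted). It was called when the 2 p14 groups were fitted alone (adjusted p = 0.0187 by limma) and with the length slope as a covariate (0.59, adjusted p = 0.025). At p17 the OIR mice spread from 1040 to 3470, beyond the nOIR p17 range of 1184 to 2143 on both sides, with a log2FC of 0.24 (-0.19 to 0.67, adjusted p = 0.559 by limma). Without S6, S7 and S8 of OIR p17 it was called at p17 (0.59, adjusted p = 0.0380 by limma) and, as the spread is estimated over all groups, at p14 (0.59, adjusted p = 0.0419). S7 and S8 were the lowest OIR p17 mice for Itgav, so leaving them out raises the p17 value by itself.

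Itgb3, whose product pairs with alpha v on sprouting endothelium and with alpha IIb on platelets, had the largest log2FC of the members at both ages and low levels. In nOIR p14 it ran from 0 over a median of 15.9 to 46.2 normalized reads, and in OIR p14 from 15.9 over 64.2 to 91.1. The mouse at 0 was S3, where 0 reads allow up to 3.03 normalized reads (3 reads, counting error only). In nOIR p17 it ran from 16.3 over 33.8 to 55.1, and in OIR p17 from 63.5 over 149.6 to 193.4, with S4 apart at the low end and still above all controls.

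The log2FC of Itgb3 was 2.15 at p14 (SE 0.588, adjusted p = 0.0235 by limma) and 2.14 at p17 (SE 0.550, adjusted p = 0.0073). Without nOIR p14 mouse S3 the p14 value was 1.46 (adjusted p = 0.0544 by limma), and the call was also lost without nOIR p14 S6 or OIR p14 S4, S5 or S6, at 1.97 to 2.04. With a pseudocount of 0.1 it was 2.75 at p14 (adjusted p = 0.0558 by limma) and 2.17 at p17 (adjusted p = 0.0789). At p17 the count tests on recovered reads kept the call. Itga2b, the platelet partner, is among the other alpha subunits below and was not called at either age. Of the platelet markers Pf4 was called at p17 (4.87), 1 of 4 tested. The log2FC of the 4 ran from -0.90 to 4.87 with a median of 0.33, so they did not move together. Their summed level, which includes Pf4, was 118.0 to 242.7 normalized reads in OIR p17 and 52.3 to 117.8 in nOIR p17. The part of platelets in the Itgb3 difference was not tested.

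Itgb8, whose product with alpha v activates latent TGF-beta, was 2.02-fold higher at p14. It ran from 447.1 over 682.8 to 801.2 normalized reads in nOIR p14 and from 925.5 over 1424 to 1683 in OIR p14, without overlap. The log2FC was 1.02 (SE 0.179, adjusted p = 3.82e-04 by limma; exact permutation p = 0.0022). At p17 it ran from 404.7 over 646.4 to 721.4 in nOIR and from 712.2 over 928.7 to 1407 in OIR, where only S3 was within the range of the controls, with a log2FC of 0.67 (SE 0.168, adjusted p = 0.0056 by limma). The calls of Itgb8 and Itga4 held at both ages in every alternative run.

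Itgb5, whose product with alpha v binds vitronectin, was the only member with lower means in OIR, and it was not called at either age. The nOIR p17 mice were close together, from 1492 to 1997 normalized reads. The OIR p17 mice S1 to S5 lay between 1999 and 2470, all above the highest control, and S6, S7 and S8 lay at 423, 442 and 452, all below the lowest control. The mean of 1490 ± 883.5 (SD, n = 8) therefore describes no single mouse, and the log2FC of -0.59 (-1.40 to 0.22) had an adjusted p of 0.418 by limma. It was -0.74 to -0.38 when single mice were left out and -0.28 with the replicate number as a block, never called. No value is given without S6, S7 and S8, since their Itgb5 levels drew attention to them. At p14, S1, S3 and S5 of OIR (826, 767 and 914) and S5 and S6 of nOIR (1126 and 544) were low beside the other 7 mice, at 1497 to 2479, and the log2FC was -0.38 (-1.25 to 0.49, adjusted p = 0.747 by limma), and -0.68 to -0.25 when single mice were left out.

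The same mice S6, S7 and S8 of OIR p17 were the lowest of their group for Itga6, and S7 and S8 the lowest for Itgav, while for Itga5 they were the 3 highest. The slope of log2 level on log2 transcript length over 14168 genes, a measure that moves with RNA integrity and amplification, was -0.078, -0.116 and -0.225 in these mice. Among the 5 mice high in Itgb5 it was 0.187 in S1, 0.078 in S2 and 0.110 in S5, and -0.181 in S3 and -0.091 in S4. It ran from -0.066 to 0.121 in nOIR p17. With this slope as a covariate the log2FC of Itgb5 at p17 was -0.35 and was not called. The parts of RNA quality and of library preparation in the split were not tested, so it is open to doubt whether the Itgb5 values of these mice measure the gene's level alone.

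**Figure D2:**
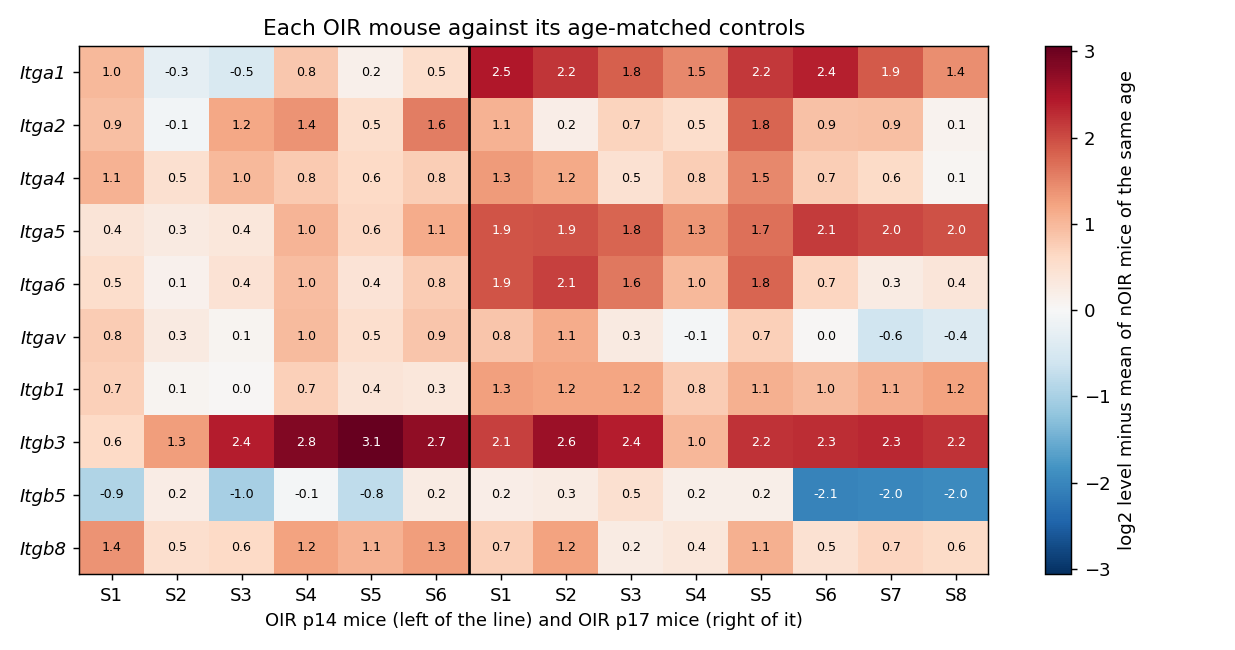
Log2 level of each integrin subunit gene in each OIR mouse minus the mean of the nOIR mice of the same age, p14 left and p17 right of the line. At p17 between 8 and 10 of the 10 members were above the control mean in every mouse, and Itgb5 of S6, S7 and S8 was the lowest entry.

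The OIR effect differed between the ages for 3 members, each larger at p17, and for 0 in the opposite direction, where 1.43% of all genes had a larger and 0.147% a smaller effect at p17. The difference of the log2FC, p17 minus p14, was 1.68 for Itga1 (SE 0.282, adjusted p = 6.65e-04 by limma), 1.21 for Itga5 (SE 0.253, adjusted p = 0.0068) and 0.72 for Itgb1 (SE 0.151, adjusted p = 0.0071). These calls held in every alternative run. The value for Itga5 was 1.09 without S6, S7 and S8 of OIR p17 (adjusted p = 0.0449 by limma). For Itga6, which was called at the later age alone, the difference was 0.67 with an interval of -0.065 to 1.40 and an adjusted p of 0.53 by limma, so no difference between the ages was shown. Without S6, S7 and S8 of OIR p17 it was 1.14 and was called (adjusted p = 0.034 by limma). These were the lowest OIR p17 mice for Itga6, so leaving them out raises the difference by itself and decides nothing. For Itgb8 it was -0.35 (-0.85 to 0.16), for Itga4 0.031 (-0.48 to 0.54) and for Itgb3 -0.013 (-1.66 to 1.64), the last interval being too wide to say that the effects were alike.

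**Figure D3:**
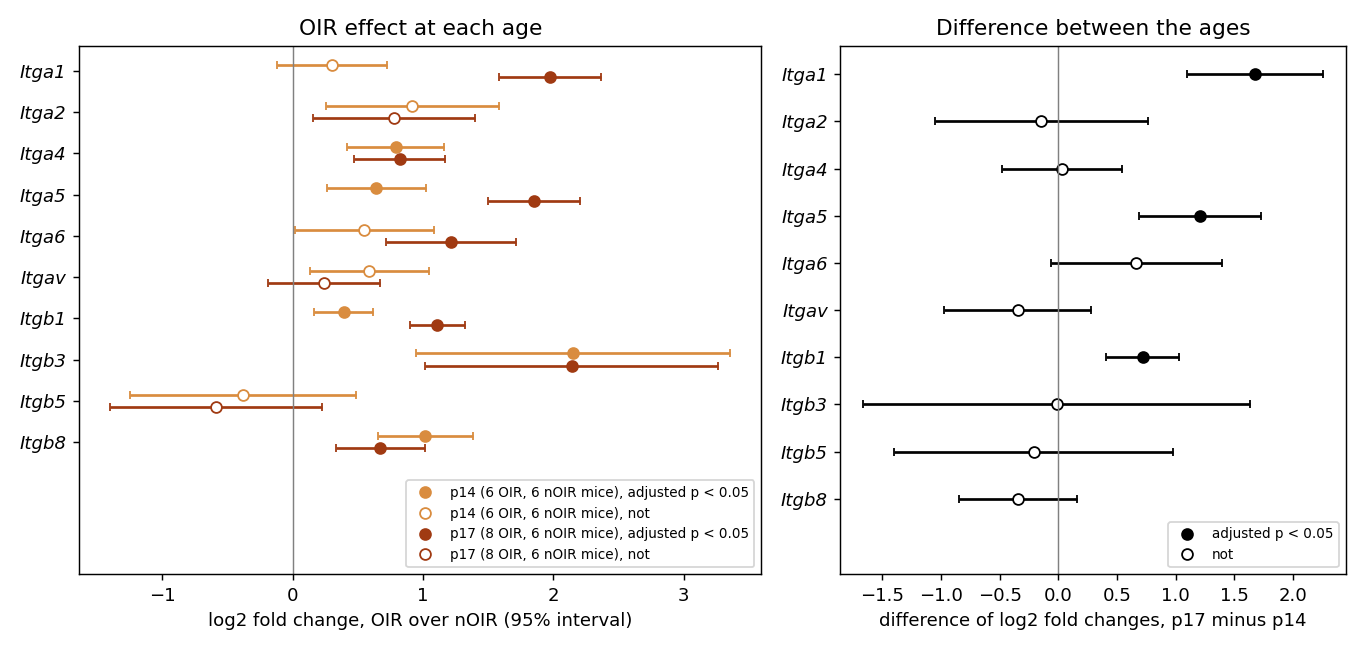
Left, log2 fold change of OIR over nOIR with its 95% interval at p14 and p17 for each member. Right, the difference of those fold changes, p17 minus p14. Filled points have an adjusted p under 0.05. Itga1, Itga5 and Itgb1 lie above 0 on the right.

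Within OIR retinas the same 3 genes rose from p14 to p17, and 0 members fell, where 4.11% of all genes were higher and 1.81% lower. The log2 change was 1.57 for Itga1, 0.92 for Itga5 and 0.68 for Itgb1, and the OIR p17 mice of Itga1 and Itgb1 did not overlap with OIR p14. Without S6, S7 and S8, Itga6 was also called (0.78, adjusted p = 0.0228 by limma). As these were its lowest OIR p17 mice, leaving them out raises this change by itself. Itgb3 was 2.86-fold higher at p17 and was not called (log2 change 1.52, adjusted p = 0.11 by limma; exact permutation p = 0.0013, not adjusted), with 7 of 8 OIR p17 mice above all OIR p14 mice. It was called in 3 alternatives, with only the compared groups fitted (adjusted p = 0.0186 by limma), by DESeq2 (1.36, adjusted p = 0.0190) and without nOIR p14 S3 (adjusted p = 0.0187 by limma). Itgb8 was lower at p17 by 0.45 on the log2 scale and was not called (adjusted p = 0.129 by limma). In nOIR retinas 0 of 10 members were called between p14 and p17 by limma, edgeR or DESeq2, where 0.317% of all genes were called in either direction. Of the 10, only Itgb3 had an unadjusted p under 0.05. It was 2.89-fold higher at p17 in nOIR too (log2 change 1.53, adjusted p = 0.448 by limma). The rise of Itgb3 with age was thus no larger in OIR than in nOIR. With single mice left out, the nOIR change was 0.84 to 1.95. These values share mice with the comparisons above and are no separate evidence.

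Over the 26 mice the log2 levels of Itga1 and Itgb1 had a Pearson r of 0.92, those of Itga1 and Itga5 0.89 and those of Itga5 and Itgb1 0.88. The genes most like Itgb1, the member with the smallest adjusted p at p17, were Cd34 (0.96), Cd93 (0.96) and Tpm4 (0.95), with 19004 genes compared. Those most like Itgb5 were Lemd2, Marcks and Dmwd (0.97, 0.97 and 0.96), looked up after the split had been seen. These are descriptions across mice that share groups and depth, with no test.

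Most marker genes of vessel cells were higher at p17, where 7 of the 10 members were, and few were higher at p14, where 5 members were. Of 9 endothelial markers 8 were higher and 0 lower at p17, among them Tie1 (1.62) and Pecam1 (1.27), and 1 was higher and 1 lower at p14. Their summed level ran from 7745 to 9536 normalized reads in nOIR p17 and from 11428 to 15136 in OIR p17, and overlapped at p14 (9616 to 12655 in nOIR, 7794 to 12688 in OIR). Of 7 pericyte and mural markers 7 were higher at p17, with Mcam at 2.7 and Rgs5 at 1.84, summed to 3193 to 3972 in nOIR and 10589 to 14480 in OIR. At p14, 1 mural marker was higher and 3 were lower.

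Of 6 microglia markers 0 were called at p14 and 4 were higher at p17 (Cx3cr1 1.62, Csf1r 0.97), with a summed level of 1607 to 1908 in nOIR p17 and 2500 to 3912 in OIR p17. Of the blood leukocyte markers, 3 of 4 tested were higher at p17 (Ptprc 2.71, Ccr2 1.74), at summed levels of 10.6 to 61.8 and 61.5 to 138.1. All 3 astrocyte markers were higher at p17 and 2 at p14, with Gfap, the filament of reactive glia, at 3.23 and 3.68. Müller glia markers were lower, 3 of 5 at p14 and 4 of 5 at p17, as were 2 of 5 rod markers and 3 of 6 markers of other neurons at p17. Rod markers summed to 841209 normalized reads or more in every mouse. Of the red blood cell markers 4 of 4 were higher at p17, summed to 142.4 to 1104 normalized reads in nOIR p17 and 1084 to 16612 in OIR p17. For lens and pigment epithelium, 0 markers were called at either age. The lens markers were uneven between mice, with a median log2FC of 1.47 at p14 and 1.66 at p17. They summed to 28690, 19920 and 15999 normalized reads in OIR p17 S2, S8 and S7, and to 16867 in nOIR p14 S5. The sum in S4 of nOIR p14, which was set aside, was 15459. The part of each cell type in the integrin differences was not tested.

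Of the other integrin subunits, 16 were listed and 15 tested, of which 2 were higher at p14, 4 were higher at p17 and 0 were lower at either age. At p14 these were Itgb2, the leukocyte beta subunit (1.44), and Itga3, a laminin receptor subunit (0.47). At p17 they were Itgb2 (2.15), its dendritic cell and macrophage partner Itgax (3.41), the laminin receptor subunit Itgb4 (1.52) and Itga8 (0.69).

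Of the matrix ligands, all 5 collagen genes rose at p17 and 2 at p14, Col4a1 and Col1a1. Col4a1, a basement membrane collagen, had a log2FC of 0.94 at p14 and 2.73 at p17, and Col4a2 of 2.11 at p17. Of 9 laminin and nidogen genes 6 rose at p17, with the endothelial laminin chain Lama4 at 2.03 and Nid1 at 2.32, and 1 at p14, Nid2 (1.30). The difference between the ages was called for 3 of the 5 collagens and 4 of the 9 laminins and nidogens, each larger at p17.

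Of 11 genes for RGD and related ligands 3 rose and 2 fell at p14, and 4 rose and 1 fell at p17. Ccn2 (0.75 and 1.77) and Ccn1 (1.06 and 2.39), matricellular proteins, and Fn1, fibronectin (1.12 and 2.00), rose at both ages, and Thbs1 at p17 (1.69). Vtn, vitronectin, fell by 0.47 on the log2 scale at p14 and Vcam1 fell by 0.57, while Edil3 fell by 0.63 at p17. Of 7 genes for latent TGF-beta and its carriers 1 rose at p14, Tgfb2 (0.51), and 4 at p17, with Lrrc32, which holds latent TGF-beta at the cell surface, at 2.38 and Tgfb1 at 1.95.

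Of 27 activators and adaptors that join integrins to actin, 4 were higher at p14 and 13 at p17, and 1, Tns3, was lower at p17 (-0.53). Fermt2, a kindlin that activates beta subunits, had a log2FC of 0.36 at p14 and 0.79 at p17, and the actin crosslinker Flna 0.73 and 1.20. The median log2FC of this list was 0.12 at p14 and 0.45 at p17.

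**Figure D4:**
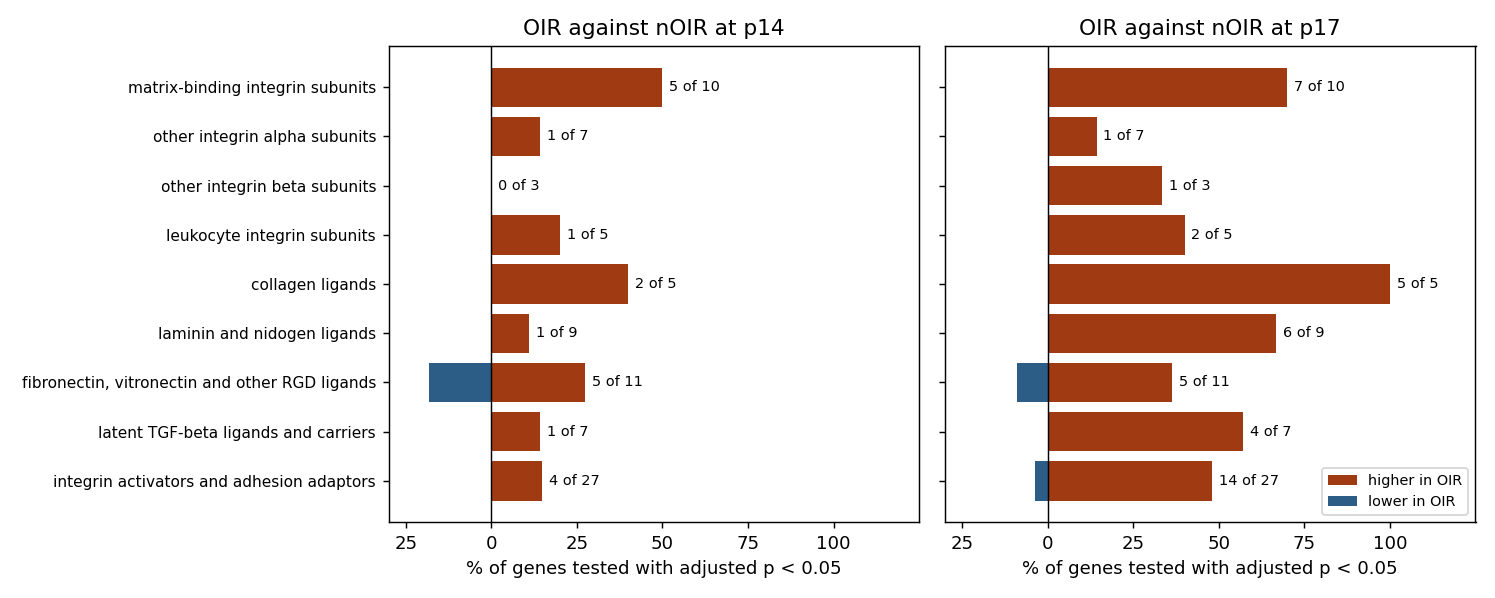
Share of the genes tested in each list that had an adjusted p under 0.05, higher in OIR to the right of 0 and lower to the left, at p14 and p17, with the number called in both directions of the number tested. All 5 listed collagen genes were called higher at p17, and 7 of the 10 matrix-binding subunits. Of all genes tested, 7.39% were called higher and 5.12% lower at p17.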

How the data were processed

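Whole retinas of OIR and nOIR mice were sequenced, and each mouse gave 1 SMARTer library. The authors aligned the reads by STAR 2.7.8a to the Gencode M28 mouse reference, counted them with featureCounts 2.0.1 and divided the counts by DESeq2 1.34 size factors in R 4.0.3 (versions from the submitters' processing notes, which also list FastQC 0.73). They deposited this signal of normalized reads, with their own group means, log2 fold changes and adjusted p-values for OIR against nOIR. The authors' deposited log2 fold changes and p-values were not used.

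The deposited values were whole multiples of 1 step per mouse, and 100% came out as whole reads (tolerance 1e-06). Recovered totals ran from 17029536 to 33593428 reads, with no PCR copies removed, and intervals from them cover counting error only. No pair of mice of a group agreed within sampling noise (lowest chi-square per degree of freedom 9.39).

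Values were taken as log2(normalized reads + 1), and genes averaging under 1 normalized read over the mice were left out. Limma 3.58.1 (trended eBayes, R 4.3.3) was fitted to the 4 groups of 26 mice at once, with Benjamini-Hochberg adjustment over 27137 genes, and the difference between the ages was a contrast of the same fit. Exact permutation tests (two-sided, over all splits of the mice compared, Python 3.11.15 with numpy 2.4.6) were run for single members. On simulated data for p17 (26894 genes, log2 fold change 1), 89.5% of 200 changed genes were recovered with 14 false calls. The simulation gave all genes the same dispersion of 0.05 and took no changed genes from the lowest levels. The coefficient of variation of the members in OIR p17 ran from 10.4% (Itgb1) to 59.3% (Itgb5). The share recovered is thus not the power for a given member.

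All 10 members were named. Per list and direction up to 2 genes with the smallest adjusted p at p17 were named, and other genes of lists with 5 or fewer calls were chosen after their values were seen. Members and lists were chosen with earlier results of these data known. Alternatives were count tests on recovered reads (edgeR 4.0.16, DESeq2 1.42.0), other scalings, filters and pseudocounts, covariates, the replicate number as a block, and leaving out each mouse. Removing nOIR p14 S5 and OIR p17 S2, each the highest of its group in lens genes, removing OIR p17 S6, S7 and S8, and the length slope were added after seeing the data. Promoter sequences are RefSeq's on GRCm38.p6. The human samples of the study were not analysed here.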

Additional observations from a re-analysis of the deposited data

Results flagged for a closer look

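Within groups of 6 or 8 mice, the gap between an extreme mouse and its neighbour was set against the group's range for all 10 members. This gave 4 mice apart in 40 groups, and chance alone sets about 1 in 20 groups apart. In OIR p17, S5 was apart as the highest for Itga2 (99.1 normalized reads) and S4 as the lowest for Itgb3 (63.5). In nOIR p14, S1 was apart as the highest for Itga5 (371.1) and S3 as the highest for Itgb1 (3359).

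The OIR effect at p17 differed from that at p14 by the contrast of the same limma fit for 3 members, by 1.68 on the log2 scale for Itga1, by 1.21 for Itga5 and by 0.72 for Itgb1.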

How the results depend on the processing

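At p17, 6 to 8 members were called higher under the 41 alternatives, where Itgb3 lost its call with a pseudocount of 0.1 and Itga2 gained one in 3 alternatives. At p14, 3 members were called higher with only the compared groups fitted (Itga5, Itgb1 and Itgb3 lost, Itgav gained) and 3 without nOIR p14 S5 and OIR p17 S2, each the highest of its group in lens genes, and 2 to 6 when single mice were left out. Itgb8 and Itga4 kept their calls at both ages. The same-numbered mice were not paired by litter or day in the labels (correlations of their deviations -0.23 to 0.33, 7 of 34 over 0.1). With a replicate block Itga2 was called at p14 (0.98, adjusted p = 0.0448 by limma) and p17 (0.83, adjusted p = 0.0438), and Itgb1 was not at p14 (0.38, adjusted p = 0.0845).

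Signs turned only in values past no threshold, and the cause was not tested. For the difference between the ages, Itgb3 was 0.12 with nOIR p14 S4 included, 0.019 at the same total per mouse, 0.43 by edgeR, 0.41 by DESeq2, 0.016 with log2 Xist and 0.22 with the length slope as a covariate. Itgb5 was 0.27 with the replicate block, 0.20 by edgeR, 0.20 by DESeq2 and 0.027 with the length slope. For p17 minus p14 in OIR, Itga2 was 0.025 with the replicate block, 0.050 without the lens-rich mice and 0.024 with the length slope, Itga4 was 0.010 with the replicate block, and without OIR p17 S6, S7 and S8 Itga2 was 0.047, Itga4 0.082 and Itgav 0.075. Itgb5 was 0.27 with the replicate block, 0.22 by edgeR, 0.22 by DESeq2, 0.20 with log2 Cryaa and 0.093 with the length slope. For p17 minus p14 in nOIR, Itgav was -0.036 with S4 included, -0.014 with the replicate block and -0.0095 with the length slope.

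Leaving out single mice, the difference between the ages ran from -0.34 to 0.045 for Itga2, from -0.063 to 0.14 for Itga4, from -0.43 to 0.68 for Itgb3 and from -0.36 to 0.096 for Itgb5. The change in OIR ran from -0.23 to 0.096 for Itga2 and from -0.18 to 0.18 for Itgb5. The change in nOIR ran from -0.078 to 0.27 for Itga2, from -0.011 to 0.16 for Itgav, from -0.081 to 0.011 for Itgb1, from -0.13 to 0.31 for Itgb5 and from -0.20 to 0.015 for Itgb8. Itgb3 and Itga2 rest on few reads, which limits their precision.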
